A study of Mus musculus with 2 samples.

Results

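The circadian clock and clock output genes Per1, Per3, Dbp, Tef, Bhlhe40 and Usp2 are described here in samples labelled as mouse jejunum. They were chosen by symbol from the authors' deposited table comparing a high-glucose diet with a control diet, in which Bhlhe40 carries its older symbol Bhlhb2. They make up 6 of the 1559 genes named in that table, and each is represented by 1 probe set, a group of array probes for one transcript. Male C57BL/6J mice entered the study at 4 weeks of age, acclimated for 2 weeks, then ate a regular chow (AIN76) or a diet with 20% glucose (HGD) for 4 weeks, and were 10 weeks old when tissue was taken from the jejunum, the part of the small intestine between duodenum and ileum. They were kept in natural light. Neither the hour of collection nor the number of animals behind an array is given in the sources used here. On both signal arrays, liver-abundant genes were very bright and most named Paneth cell, B cell and smooth muscle markers dim. The intestinal gene Fabp2 ranked above the 90th percentile on both arrays as well. The 5 named pancreatic acinar markers differed between the arrays, with summed signals of 3975 on control and 93.2 on high glucose. The tissue behind the signals is known from the labels only and is in doubt. Each diet has 1 array, so no difference below has a replicate error or a test, and the arrays' number limits the precision. In whole tissue, fewer cells of a type and less RNA per cell cannot be told apart.

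The clock is a feedback loop of transcription that runs in almost every cell. The activators CLOCK and BMAL1 bind E-box sequences and switch on the Period and Cryptochrome genes, whose proteins then block these activators. The same activators drive Dbp and Tef, factors of the PAR bZIP family that bind D-box sequences and pass the rhythm on to genes of metabolism, and in the gut many transporters and digestive functions follow a daily rhythm set by both light and feeding.

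The RefSeq promoter table (build GRCm38.p6) held windows for 5 of the 6 genes, 7 windows in all, from 250 bases before to 50 after an annotated start site. Stretches with a motif that clock factors are known to bind are shown for the 3 genes that held one, Per1, Per3 and Tef. Capitals mark the E-box (CACGTG) and the D-box (TTATGNAA), both searched on both strands, with 20 bases on either side where the upstream part of the window allows. The Per1 stretch lies on the plus strand at chr11:69098763-69098948, inside the annotated gene (69095108 to 69109965), and its start site is 3841 bases downstream of the outermost one. That of Per3 lies on the minus strand at chr4:151044796-151044890, before the gene (150997018 to 151044707). The first stretch of Tef lies on the plus strand at chr15:81802526-81802571, before the gene (81802673 to 81826863), and the second at chr15:81811256-81811301 inside it. The table does not give exons.
Per1: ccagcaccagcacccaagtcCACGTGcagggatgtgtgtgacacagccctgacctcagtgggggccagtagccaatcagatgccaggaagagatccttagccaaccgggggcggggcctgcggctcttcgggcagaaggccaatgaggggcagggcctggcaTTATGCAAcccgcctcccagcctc
Per3: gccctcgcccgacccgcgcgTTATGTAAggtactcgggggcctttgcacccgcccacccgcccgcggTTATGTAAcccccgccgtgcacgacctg
Tef, first start: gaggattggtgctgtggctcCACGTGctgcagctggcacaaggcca
Tef, second start: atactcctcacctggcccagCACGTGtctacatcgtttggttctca

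Per1 held both motifs, an E-box whose first base lay 166 bases before the start site and a D-box 24 bases before it. Per3 held 2 D-boxes, which began 205 and 158 bases before the start site. Tef held an E-box at both of its start sites, 127 and 138 bases before them. Of all 32851 promoter windows, 7.15% held this E-box and 3.38% this D-box. The windows of Dbp and Usp2 held neither, which says only that these letters are absent there. Of the other motifs searched, the core of the cyclic AMP response element (TGACGTC, in 3.21% of windows) was found at the second Per1 start and across the Usp2 start site, and AGGTCA, the core recognised by REV-ERB and ROR receptors (16.3% of windows), in the first Per1 window. The full response element (TGACGTCA, 1.79%) and the variant E-box CACGTT (4.68%) were found in none of the 7 windows. These matches are descriptions of sequence, not binding sites.

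**Figure D1:**
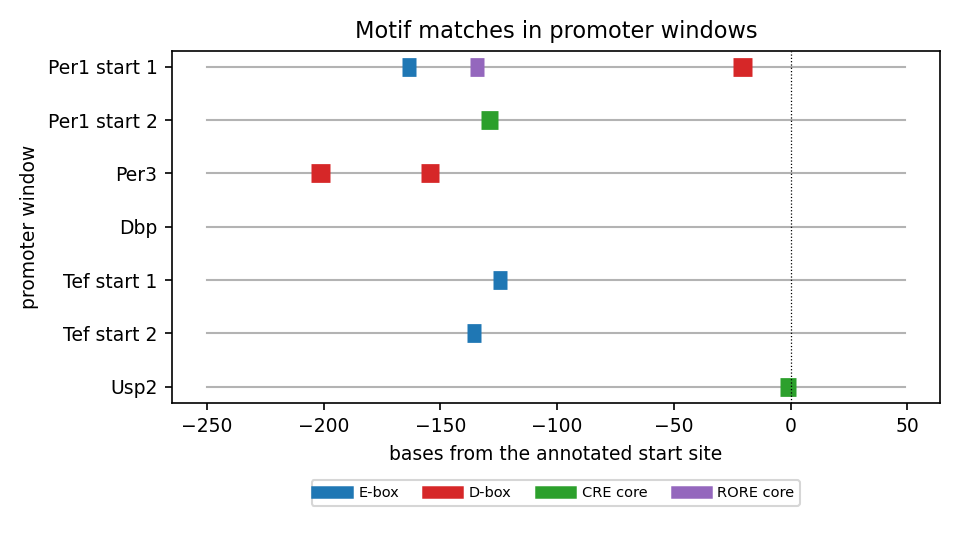
Motif matches in the 7 promoter windows of Per1, Per3, Dbp, Tef and Usp2, plotted by distance in bases from the annotated start site (dotted line, 0). Grey lines are the searched windows and coloured blocks the matches; Per1 and Tef carry E-boxes, Per1 and Per3 carry D-boxes, and the Dbp window holds no match.

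In the authors' deposited table, all 6 genes had lower values on high glucose, at a median signal log ratio (SLR, log2 of high-glucose over control) of -1.75. The table's listing chose the genes, so these values describe them and support nothing further. All 6 had an SLR of -1 or lower, as did 9.85% of the 1625 listed probe sets, and 64% of those probe sets had an SLR below 0. The median over all listed probe sets was -0.40. Cell type markers had SLRs away from 0 in the same table as well. The 7 named B cell markers all had an SLR of -1 or lower (median -3.7), while all 7 smooth muscle markers (median 1.1) and all 6 Paneth cell markers (median 0.85) were positive there. On the signal arrays most of these markers were dim, as given further below. The part of such markers' cell types in the SLRs of the clock genes was not tested.

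The Period genes, repressors of the core loop, held the lowest value and the third lowest. Per1, which light and glucocorticoids can induce directly, stood at -2.6 in the authors' deposited table, a 6.06-fold lower level, and 22 of the 1625 probe sets had a lower one. Per3, which is not essential for the rhythm itself, stood at -2.0 or 4.0-fold lower in the authors' deposited table. Of the output factors, Dbp lay between them at -2.2 (4.59-fold lower) and its relative Tef at -1.3 (2.46-fold lower) in the authors' deposited table. Usp2, a deubiquitinating enzyme with strongly rhythmic expression that acts on clock proteins, had -1.5 (2.83-fold lower) in the authors' deposited table. Bhlhe40, a repressor that competes for E-boxes and also responds to low oxygen, had the SLR nearest 0 of the 6 in the authors' deposited table, at -1.0.

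The signals of the arrays gave a different order. They are MAS5 values, 1 linear number per probe set, and on high glucose were lower almost throughout, at a median log2 ratio of -0.97 over the 11315 probe sets that counted as expressed. The bar for expression was a mean log2 signal at or above the median of the non-control probe sets, and all 6 genes reached it. The relative log2 ratio below is the log2 ratio of the signals minus that array-wide shift. Signals of different probe sets differ in probe affinity and do not rank genes by abundance, so each gene is compared only with itself and through its rank on each array.

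The Per1 signal was 17.4 on control and 11.9 on high glucose. This is a smaller drop than that of the array as a whole, so its relative log2 ratio was 0.42, and its rank moved from the 56.0th to the 60.7th percentile. Per3, with nearly the same control signal of 16.9, had 5.8 on high glucose and a relative log2 ratio of -0.57. It went from the 55.4th to the 41.6th percentile, so the Period genes lay on opposite sides of the shift.

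Dbp was the brightest of the probe sets, with signals of 248.5 on control and 207.4 on high glucose. Its relative log2 ratio was 0.71, a 1.64-fold higher level, and its rank lay 2.84 percentile points above the 92.2nd percentile it held on control. The Dbp probe set has the suffix s, which marks probes that several transcripts can share. Tef had signals of 88.3 and 49.1 and followed the array almost exactly, with a relative log2 ratio of 0.12 and ranks at the 82.9th and 84.9th percentiles.

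Bhlhe40 had signals of 100.4 on control and 30.3 on high glucose. It was the lowest of the 6 relative to the shift, at -0.76 or 1.69-fold, and its rank went from the 84.4th to the 78.7th percentile. Usp2 went the other way, with signals of 10.1 and 27.7. Its relative log2 ratio was 2.43, a 5.38-fold higher level, and its rank moved from the 44.6th to the 77.4th percentile. Its control signal lay below the control median of 13.1, and it ranked among expressed probe sets through its high-glucose signal, whereas the high-glucose signal of Per3 lay below the high-glucose median of 7.9. Without that bar, and with the median of all probe sets as the zero, Usp2 stood at 2.15 and Per3 at -0.85.

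**Figure D2:**
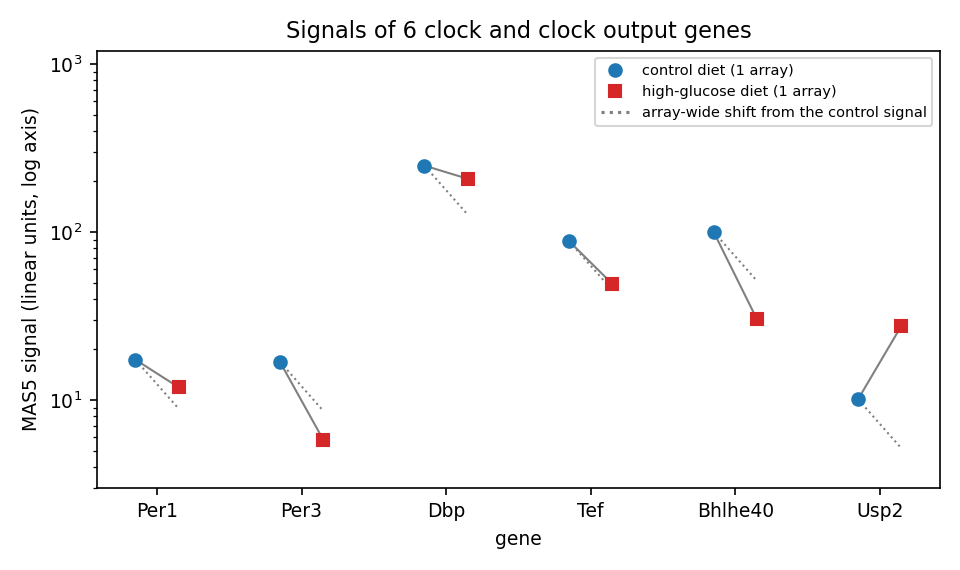
MAS5 signals (linear units on a log axis) of the 6 genes on the control array (circles) and the high-glucose array (squares), 1 array per diet with no error bars. Dotted lines show where the array-wide shift of -0.97 on the log2 scale would take each control signal; Per3 and Bhlhe40 end below theirs, Per1 and Dbp above, Tef close to it, and Usp2 is the only one of the 6 with a higher signal on high glucose.

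As deposited, without taking out the shift, 5 of the 6 genes were dimmer on high glucose. The log2 ratios were -1.73 for Bhlhe40, -1.54 for Per3, -0.85 for Tef, -0.55 for Per1 and -0.26 for Dbp, against 1.46 for Usp2. Of all expressed probe sets 5.28% were higher on the high-glucose array in this scale. Relative to the shift, 4 of the 6 lay above it and 2 below. Past 1.5-fold there were 2 genes higher, Dbp and Usp2, where 14.7% of expressed probe sets passed, and 1 lower, Bhlhe40, where 14.3% passed. Usp2 counted as expressed only through its high-glucose signal, so its place in this count describes it and supports nothing. Per3, lower by 1.49-fold, fell just short of that mark.

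A second probe set for one gene is the nearest thing to a repeat measure within an array. Over 19 named genes with a pair of expressed listed probe sets, the difference between the relative log2 ratios of the pair had an SD of 0.51. None of the 6 genes has such a pair here. In the order from Bhlhe40 through Per3, Tef, Per1 and Dbp to Usp2, the step from Per3 to Tef (0.70) and that from Dbp to Usp2 (1.72) were larger than this SD. The steps from Bhlhe40 to Per3 (0.19), from Tef to Per1 (0.30) and from Per1 to Dbp (0.29) were smaller, so those neighbours are not set apart. Many of the pairs were of ribosomal protein genes, and the pair of 1300007C21Rik stood as far apart as 0.28 and -1.60. All pairs lie on the same 2 arrays, so the SD holds no error between arrays or animals. The larger steps therefore do not set genes apart either.

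Ratios also scatter more where signals are low, so each gene was set beside the 500 expressed probe sets nearest to it in mean level. For Per1 the interquartile range of these spanned -0.39 to 0.58, and its own value of 0.42 lay inside. For Per3 it spanned -0.38 to 0.84, with 16.8% of them below its value. Tef lay inside its interquartile range, which ran from -0.39 to 0.19. Dbp, in a range of brighter and steadier probe sets, exceeded 96.0% of its neighbours, whose interquartile range ran from -0.31 to 0.21. Bhlhe40 lay above 8.0% of its neighbours. Usp2 and Per3 are among their neighbours through the array where they are bright, so their places there describe them and support nothing.

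**Figure D3:**
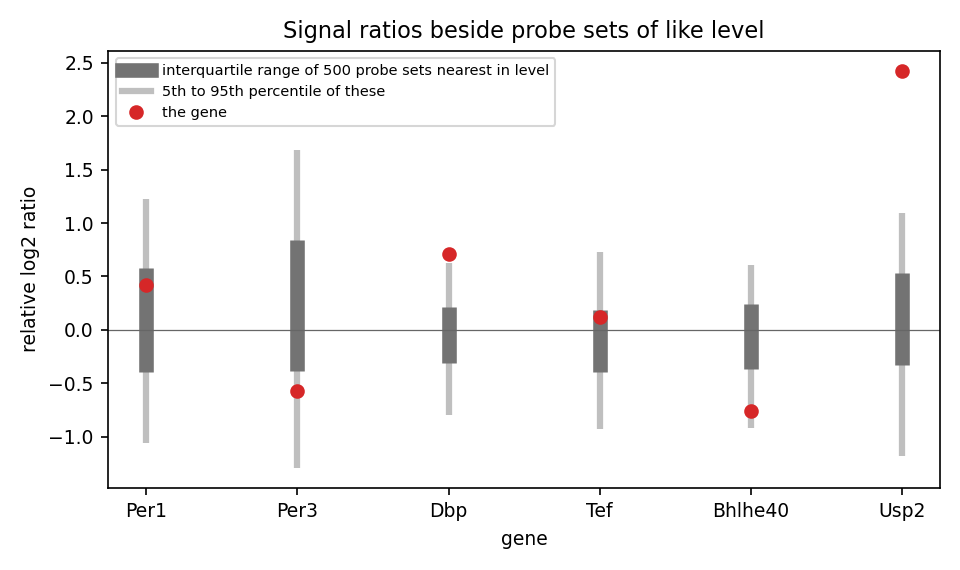
Relative log2 ratio of each gene (points) beside the interquartile range (dark bars) and the 5th to 95th percentile (light bars) of the 500 expressed probe sets nearest in level. Dbp at 0.71 lies above its light bar, and Per1 and Tef lie inside the dark ones. Usp2 and Per3 each lay below the median of 1 array.

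Set side by side after the shift was taken out, the 2 sources came closest for Bhlhe40, whose relative log2 ratio exceeded the SLR of the authors' deposited table by 0.24. The gap was 1.42 for Tef and 1.43 for Per3, then 2.91 for Dbp, 3.02 for Per1 and 3.93 for Usp2. With the signals as deposited the gaps were 0.45 for Tef, 0.46 for Per3, -0.73 for Bhlhe40, 1.94 for Dbp, 2.05 for Per1 and 2.96 for Usp2, so the closest genes depend on the scale. A shift common to all genes changes these gaps alike, so none brings all 6 to 0. The scaling behind the SLR is unknown, and whether it came from these 2 arrays is not stated. The sign of the relative ratio matched that of the SLR for 2 of the 6, Per3 and Bhlhe40, and over all expressed listed probe sets for 58.1%. With the signals as deposited, it matched for 5 of the 6 and for 71.9% of those probe sets. On that scale 1063 of these 1110 probe sets were lower on high glucose, and all 6 genes have a negative SLR. The match of the 6 is thus largely given by the scale, and the 71.9%, which includes positive SLRs, is no like background for it. Per1 and Dbp, the genes with the lowest SLR in the authors' deposited table, were thus not the lowest by signal on either scale.

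**Figure D4:**
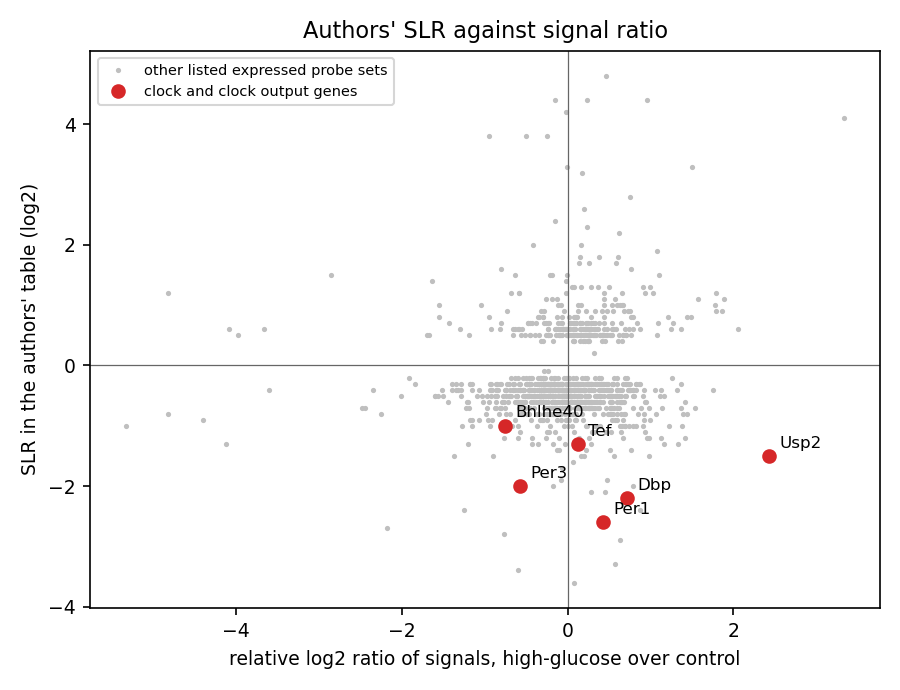
SLR of the authors' deposited table (vertical, log2) against the relative log2 ratio of the signals (horizontal), for the 6 genes (red, named) and all other listed expressed probe sets (grey). All 6 lie below 0 on the vertical axis, from -1.0 to -2.6, but spread from -0.76 to 2.43 on the horizontal one.

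The arrays' controls bear on which zero is used. The 27 probe sets of poly-A spikes, bacterial RNAs meant for addition ahead of the labelling step, showed a median log2 ratio of -0.92, close to the array-wide shift. The 18 probe sets of hybridisation spikes, added just before hybridisation, had 0.12. Against the poly-A spikes the values of the 6 genes ran from -0.81 for Bhlhe40 to 2.38 for Usp2, with Per1 at 0.38, Dbp at 0.66 and Tef at 0.08. Against the hybridisation spikes Per1 stood at -0.67, Dbp at -0.38 and Tef at -0.97, below 0, and Usp2 at 1.33. Usp2 was above 0, and Per3 and Bhlhe40 below it, under each of the 8 scalings tried. All 8 reuse the same 2 signals of each gene, so this describes the genes and supports nothing further.

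**Figure D5:**
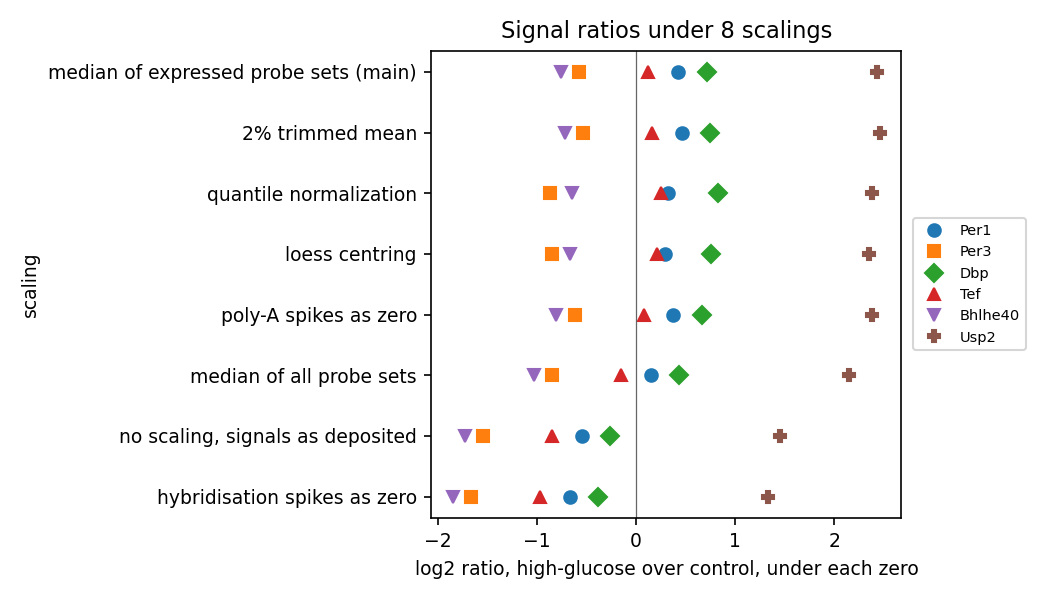
Log2 ratio of high-glucose over control for each of the 6 genes under 8 choices of scaling (rows), 1 array per diet. All rows reuse the same 2 signals of a gene and are no independent measures. Usp2 stays between 1.33 and 2.46 and Per3 and Bhlhe40 stay below 0, whereas Per1 and Dbp cross 0 when the signals are used as deposited or set against the hybridisation spikes, and Tef also does with the median of all probe sets.

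Tissue markers on the arrays limit what the signals stand for. Of 13 enterocyte markers 7 were named, 6 counted as expressed and 4 ranked above the 90th percentile on both arrays, with summed signals of 12689 on control and 9872 on high glucose. Apoa1 (7903 and 7173), Apob (2818 and 1588) and Slc2a2 (1427 and 511.1) are 3 of those 4 and are abundant in liver as well. Slc5a1 (4.6 and 0.8) did not count as expressed. Treh (16.6 and 9.5) did, at the 55.0th percentile on both arrays, and so did Anpep (64.5 and 31.5), at the 78.8th and 79.3rd. Fabp2, the intestinal fatty acid binding protein, had 455.3 and 557.9. Of 6 named Paneth cell markers 4 lay below the median on both arrays, lysozyme (Lyz1) at 5.4 and 4.6, and Habp2, also made by liver, was the 1 that counted as expressed. Of the 4 named goblet cell markers 2 lay below the median on both arrays, and the list summed to 567.9 on control and 43.8 on high glucose through Zg16 (514.3 and 16.7), which is also a pancreatic gene. Below the median on both arrays lay 5 of the 7 smooth muscle markers and 6 of the 7 B cell markers as well. Both named hepatocyte markers, Plg and Serpina1a, ranked above the 99th percentile on both arrays, with summed signals of 9037 and 6059. Serpina1a, Apoa1 and Zg16 have probe sets with the suffix x, whose probes may match other transcripts. The 5 named pancreatic acinar markers summed to 3975 on control and 93.2 on high glucose, with single signals from 223.8 to 1726 on control and from 4.7 to 39.3 on high glucose. No named marker was at 0. The part of other tissues and cell types in the values of the clock genes was not tested.

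Of 34 further genes of the core loop, its regulators and the D-box factors, 5 were named. In the authors' deposited table all 5 were negative, as were 64% of all listed probe sets. Their median SLR of -0.30 was nearer 0 than the -0.40 over all listed probe sets. Only 1 of the 5, Per2, was at -1 or lower, beside 9.85% of all listed probe sets. Per2, the remaining Period gene, stood at -1.0 in the authors' deposited table, with low signals of 7.1 on control and 2.3 on high glucose that did not count as expressed. Nr1d2, which encodes the repressor REV-ERB beta, had -0.8 in the authors' deposited table and signals of 207.7 and 103.7, a relative log2 ratio of -0.03. Cry1, the partner of the Period proteins, had -0.1 in the authors' deposited table, and its signals of 1.7 and 4.3 did not count as expressed.

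The remaining clock genes act on protein stability. Csnk1d, a kinase that marks Period proteins for degradation, was at -0.3 in the authors' deposited table and had a relative log2 ratio of 0.33 from signals of 124.2 and 79.5. The Csnk1d probe set also has the suffix x. The ubiquitin ligase gene Huwe1 also had -0.3 in the authors' deposited table, with a relative log2 ratio of -0.47 from signals of 62.7 and 23.1. Nr1d2, Csnk1d and Huwe1, the 3 further clock genes that counted as expressed, all lay within 1.5-fold of the shift, as most expressed probe sets did.

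A wider list of 30 genes with rhythmic expression, Usp2 among them, held 11 named genes. All 11 were negative in the authors' deposited table (median SLR -0.60, against 64% below 0 and a median of -0.40 over all listed probe sets), and 2 of them, Usp2 and the endoplasmic reticulum stress gene Herpud1 (-1.0), were at -1 or lower. Next came Tsc22d3, a glucocorticoid-induced regulator, and Wee1, a kinase that holds cells before mitosis, at -0.9 each in the authors' deposited table. By signal the list was split. Of its 9 expressed genes 6 lay above the shift and 3 below, with Tsc22d3 at -0.92, Herpud1 at -0.60 and Wee1 at 0.01. The fructose transporter Slc2a5 stood at 0.85 and the glucose transporter Slc2a2 at -0.51 relative to the shift, with SLRs of -0.8 and -0.6 in the authors' deposited table. Por, the electron donor of cytochromes P450, and Nampt, an enzyme of NAD synthesis, were picked after their values had been seen. They stood at 1.16 and 1.11 relative to the shift, from signals of 453.5 and 516.2 for Por and of 39.3 and 43.4 for Nampt, and like Usp2 were brighter on the high-glucose array as deposited.

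Per1 is also a target of the glucocorticoid receptor, and 6 of 15 genes of a glucocorticoid-responsive list were named, all of them negative in the authors' deposited table (median SLR -1.40, or -0.90 without Per1), beside 64% of all listed probe sets. Beside Per1 these were the gluconeogenic enzyme Pck1 at -2.1, the kinase Sgk1 at -1.9, Tsc22d3 at -0.9, Errfi1 at -0.7 and Cdkn1a at -0.5 in the authors' deposited table. Of the 5 that counted as expressed, 4 lay above the shift, with Sgk1 at 0.48, Per1 at 0.42, Pck1 at 0.29 and Errfi1 at 0.09, and Tsc22d3 lay below it.

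The genes of most similar pattern were found by the distance between pairs of SLR and relative log2 ratio, over 1 comparison and 2 arrays, among expressed named genes. Nearest to Per1 were Alg12, a mannosyltransferase of protein glycosylation (distance 0.37), Clu, which encodes the chaperone clusterin (0.49), and the B cell chemokine Cxcl13 (0.50). Nearest to Dbp were Ly6d (0.21) and again Clu (0.26) and Cxcl13 (0.28). Usp2 had no close neighbour. The nearest were Usp18, an interferon-induced protease (1.05), Noct, which encodes the rhythmically expressed nocturnin (1.12), and the antiviral gene Oas1a (1.17). Noct was at -1.3 in the authors' deposited table and had signals of 36.9 and 47.3, a relative log2 ratio of 1.33.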

How the data were processed

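RNA of samples labelled as jejunum was hybridised to Affymetrix arrays, 1 per diet. The authors deposited MAS5 intensity values for 22690 probe sets (version and scaling target not stated), per the submitters' processing notes. They also deposited a table of 1625 probe sets with an SLR, a log2 value rounded to 0.1, and a signed fold change score, not used here. Its selection rule and scaling are not given, and its direction comes from its title. Symbols came from that table; 213 were updated through RefSeq synonyms (GRCm38.p6) and 42 probe sets had none. Low signals were raised to 2.9, the average 25th percentile of both arrays. Expressed probe sets had a mean log2 signal at or above the median of 22626 non-control probe sets. A gene is called named where the authors' deposited table lists it with a symbol. Genes picked for description were mainly the 6 members, every listed gene of 3 clock lists, up to 6 genes with the largest absolute SLR of other lists, and the 3 nearest in pattern to each of Per1, Dbp and Usp2. A few others, Por and Nampt among them, were added outside this rule. Members and lists were chosen with earlier results of these data known. The ratio computation was tested on simulated data. Effects were planted there only in probe sets with brighter control signals than those of Per1, Per3 and Usp2. The simulation therefore does not cover these 3 genes. Python 3.11.15, pandas 2.3.3, SciPy 1.17.1 and statsmodels 0.14.6 were used. Alternatives covered scaling, floor, filter, probe set choice and thresholds. The spike-based scalings were added after seeing the data.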

Additional observations from a re-analysis of the deposited data

How the results depend on the processing

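No paired analysis was possible because each diet has 1 array. The SLR results of the authors' deposited table (median -1.75, 6 genes at -1 or lower) could not change with the mean over probe sets, since each gene has 1. The count could not fall with the looser limit of -0.6, so neither alternative tests them. The median relative log2 ratio of 0.27 kept its sign under 9 of 13 alternatives. Those 9 include the mean over probe sets, which for these genes is the main setting again and could not differ. It was -0.70 with the signals as deposited, -0.82 against the hybridisation spikes, and -0.00085 both with the median of all probe sets and with no filter, which are the same zero by construction. Single genes changed sign under these zeros only: as deposited Per1 was -0.55, Dbp -0.26 and Tef -0.85, against the hybridisation spikes they were -0.67, -0.38 and -0.97, and Tef was -0.15 with the median of all probe sets and with no filter. Of the counts past 1.5-fold, the 2 higher genes became 1 as deposited, with the median of all probe sets, with no filter, with a filter at the 75th percentile, without probe sets of suffix x or s, at a 2-fold threshold and against the hybridisation spikes, and 3 at a 1.3-fold threshold. The 1 lower gene became 3 as deposited, 4 against the hybridisation spikes, 0 at 2-fold, and 2 with the median of all probe sets, no filter, quantile normalization, loess centring, the poly-A spikes or a 1.3-fold threshold. With a filter at the 75th percentile Per1, Per3 and Usp2 were left out, and without shared probe sets Dbp was. With a floor at the 40th percentile the high-glucose signal of Per3 lay at the floor, and its -0.32 is a bound. The counts change because the zero, the threshold or the genes kept change.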

Other observations

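Usp2 is the 1 member among 5 named ubiquitin-specific proteases, all of them negative in the authors' deposited table, as were 64% of all listed probe sets. Usp24 stood at -1.5, Usp18 at -1.2, Usp8 at -0.4 and Usp4 at -0.2 in the authors' deposited table. By signal, Usp18 lay at 1.42 relative to the shift, from 43.3 on control and 59.1 on high glucose, and Usp24, Usp8 and Usp4 at 0.19, -0.02 and -0.30.

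Of 14 genes of a hypoxia-responsive list, Bhlhe40 among them, 5 were named. Bhlhe40 was the only one of its 4 expressed genes below the shift. The others were Egln3, an oxygen-sensing hydroxylase, at 0.32, Ndrg1 at 0.22 and the glucose transporter Slc2a1 at 0.07, and Car9, with signals of 6.1 and 0.3, was below the bar for expression.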
